A study of Mus musculus with 12 samples.

Results

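Netrin-G and NGL genes encode pairs of adhesion proteins that meet across the synapse. The 5 genes described were *Ntng1* and *Ntng2*, which encode the ligands netrin-G1 and netrin-G2, and *Lrrc4c*, *Lrrc4* and *Lrrc4b*, which encode NGL-1, NGL-2 and NGL-3. They were chosen by symbol, as 5 of the 55335 genes counted. The data were single nucleus RNA sequencing (snRNA-seq) counts of cortex from 12 mice at P21, 6 wild type (WT) and 6 heterozygous (Het) for a frameshift mutation of *Myt1l*, with 3 males and 3 females per genotype. *Myt1l* encodes a neuronal zinc finger transcription factor, and the question was how its loss on 1 allele bears on these genes in each class of neurons and glia. The mutation is S710fsX, on a C57BL/6J background, and WT animals came from the same WT by Het breeding. All animals of both genotypes had also received AAV9 vectors in the ventricles as newborns, carrying hyPB and a tdTomato reporter, so that no group was free of virus. The cortices came from 4 litters, and which animal came from which litter is not given in the sources used here.

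Netrin-Gs are relatives of the netrins that are held to the axon membrane by a lipid anchor and do not bind the classical netrin receptors. Their partners, the NGLs, are leucine-rich repeat proteins of the dendrite. Netrin-G1 binds NGL-1 and netrin-G2 binds NGL-2, while NGL-3 lacks a netrin-G partner and binds receptor tyrosine phosphatases of the LAR family (Ptprf, Ptprd, Ptprs). NGLs also bind PSD-95 (Dlg4) inside the postsynaptic density. Netrin-G1 and netrin-G2 are known for marking different axon pathways, and each gathers its NGL in the stretch of dendrite where those axons arrive.

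In the mm10 annotation (gencode vM21), *Ntng1* (ENSMUSG00000059857.15) lay at chr3:109780040-110144011 on the minus strand and *Ntng2* (ENSMUSG00000035513.19) at chr2:29194541-29253005 on the minus strand. *Lrrc4c* (ENSMUSG00000050587.14) covered chr2:96318169-97631666 on the plus strand, a span of 1313 kb that is mostly intron. *Lrrc4* (ENSMUSG00000049939.6) lay at chr6:28661831-28831747 on the minus strand and *Lrrc4b* (ENSMUSG00000047085.14) at chr7:44429018-44463351 on the plus strand. *Lrrc4* sits wholly inside *Snd1*, which is read from the opposite strand and had 140 CPM (counts per 1000000 UMIs) over all nuclei. At least 1 exon of *Ntng2* overlaps the span of 6530402F18Rik on the same strand, and an antisense transcript, 4930445B16Rik, lies in an intron of *Lrrc4c*. Whether the counting used strand is not given in the sources used here, so that the split of reads between *Lrrc4* and *Snd1*, between *Ntng2* and 6530402F18Rik and between *Lrrc4c* and 4930445B16Rik is uncertain.

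The 250 bases upstream of the *Lrrc4c* start (RefSeq, GRCm38.p6, chr2:96317919-96318168, plus strand, outside annotated exons) are shown because this gene carries the one genotype difference called below.

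Lrrc4c upstream: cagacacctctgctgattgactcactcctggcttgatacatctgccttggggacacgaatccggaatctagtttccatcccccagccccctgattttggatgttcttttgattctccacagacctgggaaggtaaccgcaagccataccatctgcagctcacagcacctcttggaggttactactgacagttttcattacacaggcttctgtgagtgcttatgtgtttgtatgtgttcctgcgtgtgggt

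The letters searched were AAGTT and its reverse complement AACTT, the core that MYT1 family zinc fingers recognize. They would be in capitals and do not occur in this window. Of the 5 genes, *Ntng1* held 1 match and *Ntng2* held 1 on each strand in the 250 bases upstream of their RefSeq starts, windows that lie wholly in annotated exons of longer transcripts, and *Lrrc4* and *Lrrc4b* held none. The same windows held a match in 35.3% of 32851 promoters, so that 2 of 5 is close to the share of all promoters. A match is no evidence of binding, and its absence says only that the letters are not in this window.

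Total UMIs per animal over all deposited barcodes ranged from 23429386 to 59958572, and 33126 nuclei were kept after the quality limits and the removal of doublets. Over all nuclei *Myt1l* had 830, 892 and 948 CPM as lowest, median and highest of 6 WT, and 927, 994 and 1008 CPM of 6 Het. The ranges overlapped, with a log2 fold change of 0.13, higher in Het (edgeR adjusted p = 0.686). How the frameshift acts on the *Myt1l* transcript level was not tested, so that this level does not check the labels. Nuclei were placed in classes by the UMIs of marker genes, none of which is a netrin-G or NGL gene, and a class is called "-like" after its markers. Of the kept nuclei, 13028 entered a fine class (20 named classes and an unnamed one of 465 nuclei) and 20098 entered none, and levels are given for the 19 fine classes in which at least 5 animals held 10 nuclei. The 181 L5 ET-like nuclei had 4 of the L5 ET markers (*Npr3*, *Vat1l*, *Parm1*, *Pou3f1*) among their 10 leading genes. These markers also placed the nuclei in the class, so that their rank does not test the name. *Ttr*, *Dcn* and *Otx2os1* of other tissues stood among the 10 too. A UMI of *Ttr* or *Otx2os1* was held by 8 of the 181 nuclei, and *Ntng1* was 542 CPM in the other 173 beside 528 CPM in all 181 summed. The *Bcl11b* level of L5 ET-like nuclei was 164 CPM (85.1 CPM in all excitatory and 171 CPM in L6 CT-like nuclei). Their *Fezf2* level was 14.4 CPM (10.3 CPM in all excitatory and 21.2 CPM in L6 CT-like nuclei) and no UMI of *Chrna6* was counted, so that this name is uncertain. The p-values set differences against the spread between animals, and litter entered no test.

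*Ntng1*, the ligand of NGL-1, was highest in L5 ET-like nuclei, with 489 CPM ± 221 (SD, n = 8 animals, 234 to 791). Immature GABA-like nuclei followed at 275 CPM ± 226 (n = 9), L5 IT-like nuclei at 140 CPM ± 173 (n = 5) and striatal projection-like nuclei at 119 CPM ± 42.2 (n = 12). The L5 IT-like mean rested on 33 UMIs, with 1 Het animal at 426 CPM (21 UMIs) and a median of 68.2 CPM. Excitatory and GABAergic classes were both among the highest, and the broad levels were close, at 105 CPM ± 33.9 in excitatory and 117 CPM ± 21.3 in inhibitory nuclei. Within GABAergic nuclei it differed by class. Sst-like nuclei had 102 CPM ± 57.6 (n = 11) and Pvalb-like nuclei 81.1 CPM ± 33.9 (n = 12), against 12.8 CPM ± 17.5 in Vip-like (n = 10) and 3.53 CPM ± 4.31 in Lamp5-like nuclei (n = 12). Oligodendrocyte-like nuclei (5.07 CPM ± 4.55) lay beside Lamp5-like nuclei at the bottom of the order, while oligodendrocyte precursor (OPC)-like nuclei had 88 CPM ± 94.7. L6 CT-like nuclei, the corticothalamic cells, were low at 21.2 CPM ± 12.4. The highest of the 19 classes was 139-fold above the lowest and 7.65-fold above the median class (64 CPM).

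**Figure D1:**
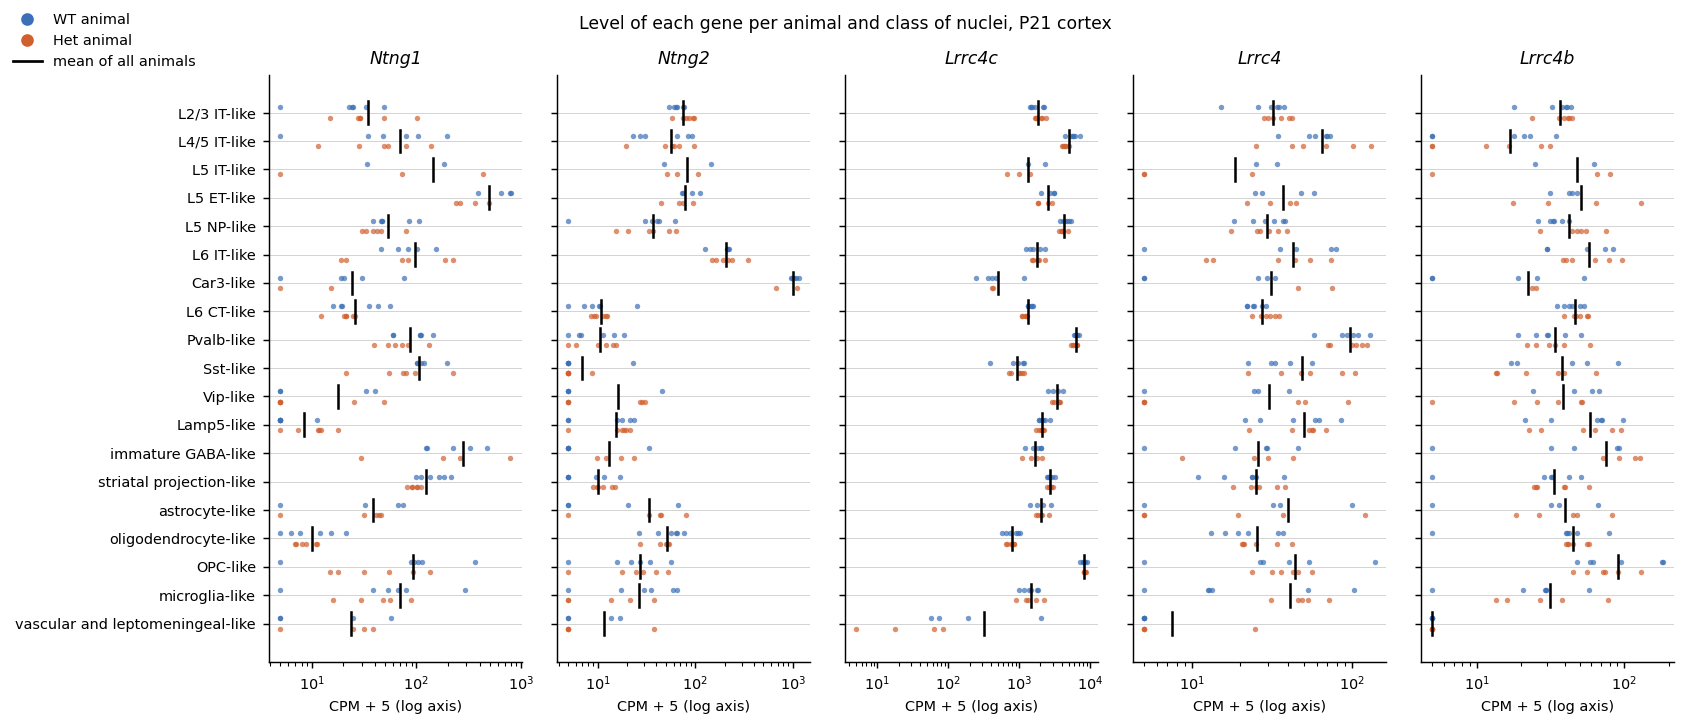
Level of each of the 5 genes (x axis, CPM + 5 on a log axis) in 19 classes of nuclei (y axis), 1 point per animal with at least 10 nuclei, WT in blue and Het in orange, and a black line at the mean of all animals. *Ntng2* stands at 989 CPM in Car3-like nuclei against a median class of 22.5 CPM, and *Lrrc4c* has its highest mean, 8314 CPM, in OPC-like nuclei.

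The order of *Ntng1* levels was not resolved step by step. No pair of neighbours among the 17 classes with at least 3 animals of each genotype passed an exact sign-flip permutation test over animals (two-sided, on log2(CPM + 5), adjusted over the 80 neighbour pairs of all 5 genes). In L5 ET-like nuclei *Ntng1* was higher than in immature GABA-like nuclei in 4 of 7 animals (p = 0.125, exact). Over all 136 pairs of classes per gene, a set of tests added after the data were seen, 74 of the *Ntng1* pairs passed (54.4%), and L5 ET-like nuclei were above 13 of the 16 other classes. These pair tests were made for the 5 genes only, so that no share over all genes stands beside such counts.

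*Ntng2*, the ligand of NGL-2, was highest in 2 classes of deep excitatory nuclei, Car3-like and L6 IT-like, and low in others. Car3-like nuclei, the *Nr4a2*-positive cells of the claustrum and lateral cortex, had 989 CPM ± 161 (n = 7). The 5 WT animals had 976, 1147, 1013, 1083 and 946 CPM, and the 2 Het animals 660 and 1099 CPM. All 7 were above the highest animal of any other class, which was 342 CPM in L6 IT-like nuclei. The share of all genes that set this class apart in the same way was not counted. L6 IT-like nuclei came next with 204 CPM ± 57.5 (n = 11, 121 to 342), 4.86-fold below Car3-like nuclei. L5 IT-like (78.6 CPM ± 41.3), L5 ET-like (74.5 CPM ± 20.2), L2/3 IT-like (69.2 CPM ± 14.2) and L4/5 IT-like nuclei (51.3 CPM ± 27) held middle levels, and L5 NP-like nuclei had 31.9 CPM ± 17.9. L6 CT-like nuclei, which share layer 6 with the L6 IT-like nuclei, had 5.87 CPM ± 4.99 (n = 12). *Ntng2* was higher in L6 IT-like than in L6 CT-like nuclei in 11 of 11 animals (p = 0.000977, adjusted p = 0.00558 over all 680 pairs, exact sign-flip test).

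GABAergic nuclei held little *Ntng2*. Excitatory nuclei had between 63.8 and 94.7 CPM over the 12 animals (median 80.2) and inhibitory nuclei between 0.813 and 11.4 CPM (median 5.33), without overlap, as was the case in this direction for 7.35% of genes. The lowest class was Sst-like, with 1.98 CPM ± 5.41 from 1.75 UMIs in all (fractions arise where a UMI fits several genes). Outside neurons, oligodendrocyte-like nuclei had 46 CPM ± 14.7, above the OPC-like level of 22.5 CPM ± 16.4, which is the opposite of the order of *Ntng1* in these glia. The step from L6 IT-like to L5 ET-like nuclei was seen in 8 of 8 animals (p = 0.00781, the smallest the exact test can give with 8 animals, adjusted p = 0.0893), and no *Ntng2* neighbour pair passed. Over all pairs, 73 of 136 passed (53.7%), and L6 IT-like nuclei were above all 16 other classes tested. Car3-like nuclei, with 5 WT and 2 Het animals, were not tested.

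Shares of nuclei with a UMI gave the same contrasts at a fixed depth. After each nucleus was thinned to 1500 UMIs, *Ntng2* was found in 82.6% ± 16.4 of Car3-like nuclei (90.6% unthinned, median depth 3587 UMIs) and in 20.9% ± 11.4 of L6 IT-like nuclei. Inhibitory nuclei gave 0.655% ± 0.431 (1.27% unthinned, median depth 3399 UMIs) and microglia-like nuclei 1.93% ± 2.82, and shares of this size were not told apart from free RNA. *Ntng1* was found in 39.1% ± 14.5 of L5 ET-like nuclei (54.1% unthinned, median depth 3823 UMIs), against 0.402% ± 0.94 in Lamp5-like nuclei (1.24% unthinned, median depth 3762 UMIs).

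**Figure D2:**
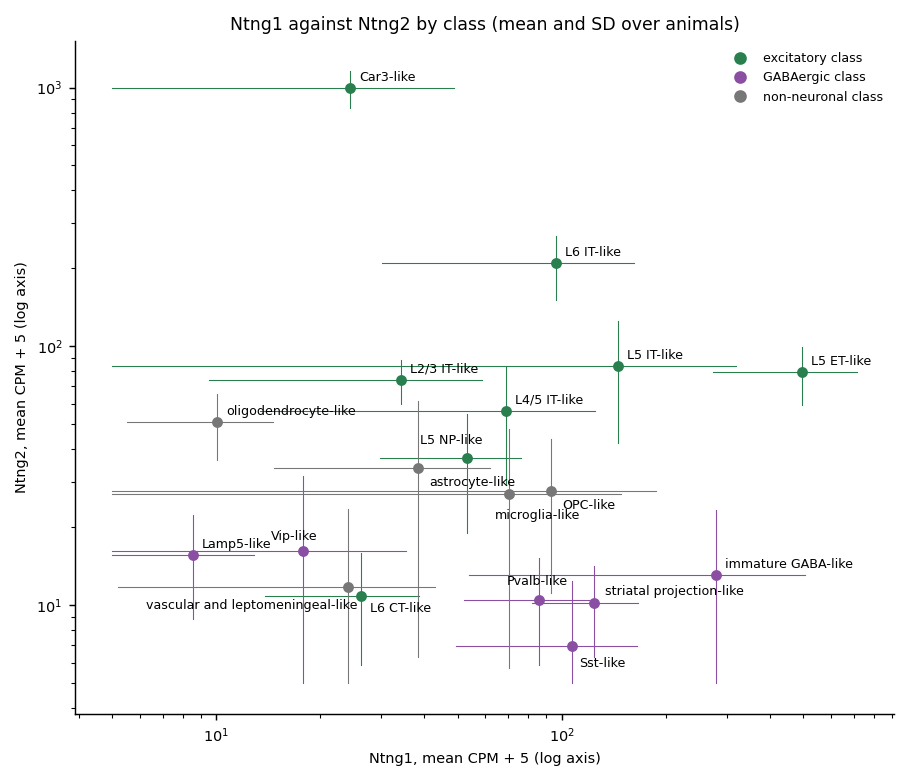
Mean *Ntng1* (x axis) against mean *Ntng2* (y axis), both as CPM + 5 on log axes, for 19 classes, with lines of 1 SD over animals. Excitatory classes are green, GABAergic classes purple and non-neuronal classes grey. Car3-like nuclei sit at the top left (19.4 CPM *Ntng1*, 989 CPM *Ntng2*), while immature GABA-like nuclei lie at the lower right (275 and 8.04 CPM).

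The class levels of the netrin-G genes did not run together or apart (Pearson r = -0.01 over 19 classes, which share libraries and depth, on log2(CPM + 5)). Single nuclei were compared in the same way. In excitatory nuclei thinned to 1500 UMIs, 123 nuclei held UMIs of both genes, and 124 would hold both if detection were independent among the excitatory nuclei of each animal. The ratio of observed to expected was 0.988 ± 0.255 (n = 12 animals, above 1 in 6 of them). Without thinning, 351 were observed against 326 expected, with a ratio of 1.08 ± 0.158. Nuclei of 1 animal share their source and no test was made of this ratio.

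*Lrrc4c*, which encodes the netrin-G1 receptor NGL-1, gave the most UMIs, 2396 CPM over all nuclei, where the other 4 genes gave between 38 and 111 CPM. Nuclear RNA holds introns, and the 1313 kb span of *Lrrc4c* is the longest of the 5. Per kb of gene span its level was 1.82 CPM, beside 1.11 for *Lrrc4b*, 0.935 for *Ntng2*, 0.304 for *Ntng1* and 0.224 for *Lrrc4*. Per kb of exon the level of *Lrrc4c* was 518 CPM and those of the others were between 9.52 and 13.7 CPM, so that the gap depended on which length was used.

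OPC-like nuclei had the highest *Lrrc4c* level, 8314 CPM ± 475 (n = 12, 7182 to 9076), and 98.5% of them held a UMI at 1500 UMIs of depth. Pvalb-like nuclei followed with 6284 CPM ± 480, L4/5 IT-like nuclei with 5135 CPM ± 971 and L5 NP-like nuclei with 4377 CPM ± 535. OPC-like nuclei were above Pvalb-like nuclei in 12 of 12 animals, by 0.405 ± 0.147 on the log2 scale (p = 0.000488, adjusted p = 0.0391, exact sign-flip test). With 1 marker enough for a class, OPC-like nuclei had 5083 CPM, below Pvalb-like nuclei, and no neighbour pair passed, and with 1 animal left out 0 to 2 pairs passed. Vip-like (3405 CPM ± 483), striatal projection-like (2759 CPM ± 219) and L5 ET-like nuclei (2525 CPM ± 534) formed the upper middle of the order. Oligodendrocyte-like nuclei had 787 CPM ± 139, far below their precursors. The GABAergic classes ran from 6284 CPM in Pvalb-like to 933 CPM ± 242 in Sst-like nuclei (n = 11). Sst-like nuclei were below L6 CT-like nuclei (1317 CPM ± 149) in 11 of 11 animals (p = 0.000977, adjusted p = 0.0391, exact sign-flip test). This pair and that of OPC-like and Pvalb-like nuclei were the only 2 of the 80 neighbour pairs that passed. Over all pairs, 110 of 136 passed (80.9%), and OPC-like nuclei were above all 16 others. This number of pairs was the highest of the 5 genes, and *Lrrc4c* also had the most UMIs. The part of UMI number in it was not tested.

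Car3-like nuclei, the class with the most *Ntng2*, had 500 CPM ± 307 of *Lrrc4c* (n = 7). Vascular and leptomeningeal-like nuclei were lowest with a mean of 314 CPM ± 704 and a median of 64.1 CPM (n = 8), and a single WT animal at 2051 CPM set that mean. The share of these nuclei with a *Lrrc4c* UMI at 1500 UMIs was 9.47% ± 9.63.

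*Lrrc4*, which encodes the netrin-G2 receptor NGL-2, was highest in Pvalb-like nuclei, with 92.2 CPM ± 22 (n = 12, 52.6 to 124). L4/5 IT-like nuclei had 59.7 CPM ± 28.9, Lamp5-like nuclei 44.9 CPM ± 19.5 and Sst-like nuclei 43.6 CPM ± 25.9. Most other classes lay near the median of 27.2 CPM, and vascular and leptomeningeal-like nuclei held 1 UMI in 8 animals. Inhibitory nuclei (48.3 CPM ± 9.97) lay above excitatory nuclei (35.3 CPM ± 5.47) with overlapping ranges. Of the 136 pairs of classes, 41 passed (30.1%), among them Pvalb-like nuclei against each of the 16 others, while no neighbour pair did. The class levels of *Lrrc4* and *Lrrc4c* were the most alike within the family (Pearson r = 0.65, Spearman rho = 0.49, 19 classes), with Pvalb-like and L4/5 IT-like nuclei high for both. Vascular and leptomeningeal-like nuclei were the lowest class for both (2.46 CPM of *Lrrc4* and 314 CPM of *Lrrc4c*).

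*Lrrc4b* encodes NGL-3, the member without a netrin-G ligand. Its highest class was 2.47-fold above the median class of 35 CPM, the smallest such ratio of the 5 genes. OPC-like nuclei had 86.3 CPM ± 48.6, immature GABA-like nuclei 70.2 CPM ± 40.6, Lamp5-like nuclei 53.5 CPM ± 27.5 and L6 IT-like nuclei 52.8 CPM ± 23.1. By genotype, OPC-like nuclei had 99.5 CPM in WT and 73.2 CPM in Het. Immature GABA-like nuclei had 47.9 CPM in WT and 98 CPM in Het, so that the order of these classes differed between genotypes. L4/5 IT-like nuclei, where *Lrrc4c* and *Lrrc4* were high, had 11.9 CPM ± 10.8. No UMI was counted among the 373640 UMIs of vascular and leptomeningeal-like nuclei, which allows up to 8.03 CPM by counting error. Excitatory (37.5 CPM ± 4.49) and inhibitory nuclei (36.7 CPM ± 4.62) differed by less than the spread between animals. For *Lrrc4b*, 41 of 136 pairs passed (30.1%).

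The comparison of Het with WT asked whether these genes shift in any class when 1 allele of *Myt1l* is mutated. Only *Lrrc4c* passed the test, and only in L6 CT-like nuclei, where it was lower in Het. The paper already lists *Lrrc4c* among synapse organization genes that were higher in WT at P21. It used the same animals, so that the call here is not independent of it. Counts were summed per animal and class, and edgeR's quasi-likelihood test was run over all genes of a class. Genes too low to be tested in a class were left out, which left 9 classes for *Ntng1*, 6 for *Ntng2*, 19 for *Lrrc4c*, 5 for *Lrrc4* and 6 for *Lrrc4b* (broad classes included). Of these 45 tests, 1 was called, which took an adjusted p under 0.05 and a log2 difference of 0.2 or more in size. Among all genes of the same fits, 0.108% of 84342 tests were called. In all, 10 tests of the 5 genes had an unadjusted p under 0.05, beside 6.5% of all tests. These tests overlap, since the broad classes hold the nuclei of the fine ones.

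The 6 WT animals had a *Lrrc4c* level in L6 CT-like nuclei of 1317 (lowest), 1403 (median) and 1562 CPM (highest), and the 6 Het animals had 1098, 1229 and 1308 CPM. Every Het animal was below every WT animal, a pattern shown by 0.224% of the genes tested in this class (0.921% did not overlap in either direction). The means were 1424 CPM ± 115 and 1210 CPM ± 89.2. *Lrrc4c* fell by 0.27 on the log2 scale (SE 0.07, 95% interval -0.41 to -0.14, edgeR adjusted p = 0.0411). In this class 0.671% of genes were called and 0.303% were called lower in Het. DESeq2, the tool of the study, called it too (-0.27, adjusted p = 0.00946), with 2.03% called of the 3202 genes its own filter left (0.22% of all genes it fitted, a base that differs from that of edgeR). *Myt1l* itself was higher in Het by 0.20 in this class, called by DESeq2 (adjusted p = 0.037) and not by edgeR (adjusted p = 0.178). The summed astrocyte markers of the same nuclei also did not overlap (50.2 to 64.8 CPM in WT, 41.7 to 49.7 CPM in Het), as 1 of 25 marker sums examined, and their part in the result was not tested. The call was lost in 8 of the 12 fits that left out 1 animal, where the log2 fold change stayed between -0.30 and -0.24 and the adjusted p between 0.0217 and 0.156. It was also lost in 6 of the 9 other settings (edgeR), which were no filter on low counts (-0.21, adjusted p = 0.222), 1 marker enough for a class (-0.21, adjusted p = 0.215), a replicate block (adjusted p = 0.0767), no doublet removal (adjusted p = 0.0705), no upper limits on UMIs and genes (adjusted p = 0.0595) and sex as a covariate (adjusted p = 0.0528).

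**Figure D3:**
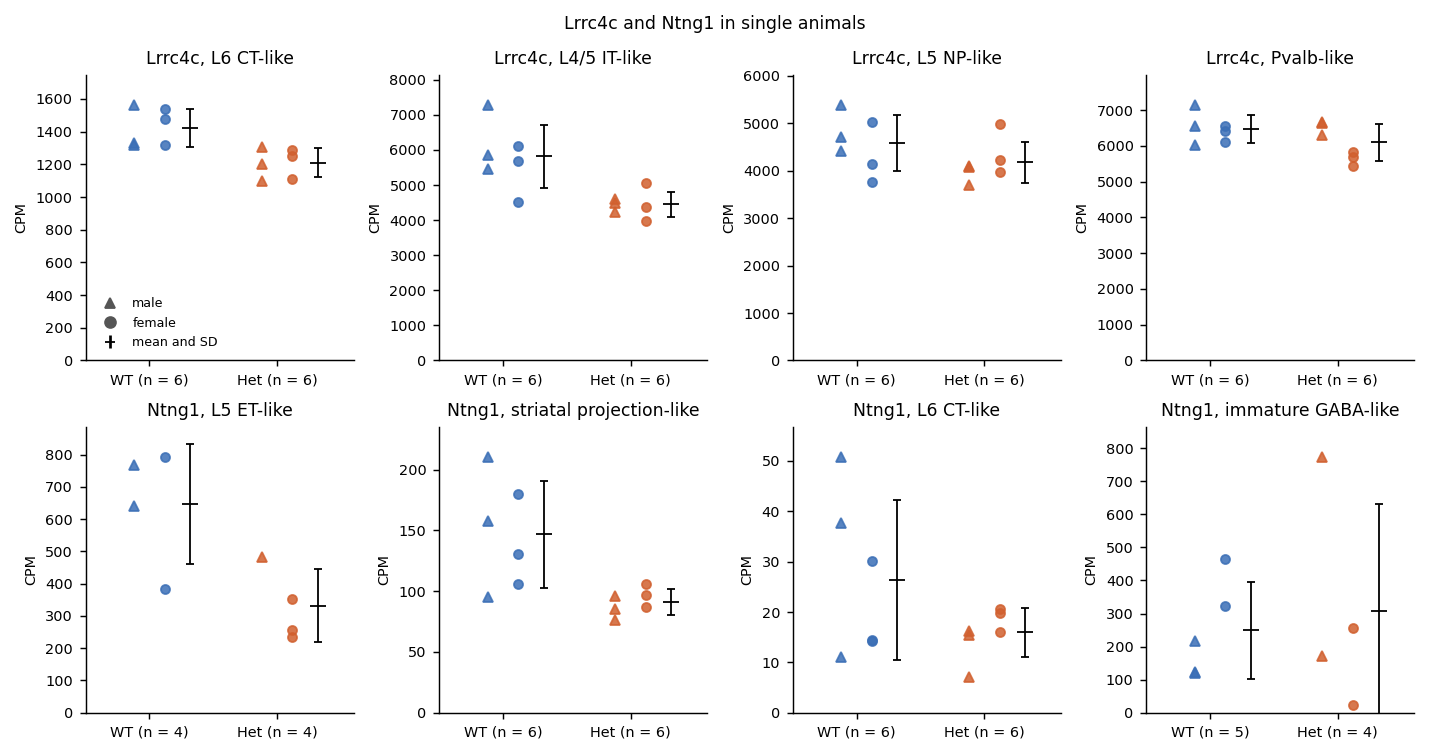
Level in CPM (y axis, from 0) of *Lrrc4c* and *Ntng1* in single WT and Het animals for 8 pairs of gene and class, males as triangles and females as circles, with the mean and SD. The L6 CT-like panel of *Lrrc4c* is the one without overlap, with WT animals from 1317 to 1562 CPM and Het animals from 1098 to 1308 CPM.

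In other excitatory classes *Lrrc4c* did not pass. L4/5 IT-like nuclei had 4518, 5780 and 7276 CPM (lowest, median, highest of 6 WT) and 3981, 4423 and 5045 CPM (6 Het), which overlapped. The log2 fold change there was -0.41 (SE 0.10, 95% interval -0.62 to -0.19, edgeR adjusted p = 0.176), larger in size than in L6 CT-like nuclei. The class held 404 nuclei against 3252, and the part of class size was not tested. The estimate ran from -0.42 to -0.24 over the other settings that kept this class, which 1 marker enough did not. L5 NP-like nuclei gave -0.17 (SE 0.08, edgeR adjusted p = 0.732), all excitatory nuclei -0.18 (SE 0.07, adjusted p = 0.457) and all nuclei -0.15 (SE 0.06, adjusted p = 0.778). In the class with the highest level, OPC-like nuclei, the difference was 0.02 (95% interval -0.14 to 0.18), and in Pvalb-like nuclei it was -0.11 (95% interval -0.23 to 0.01). The estimate was negative in 13 of 19 classes (10 of 16 fine classes), with a median of -0.10, beside 51.2% of all gene tests. Whether the difference in L6 CT-like nuclei departs from that in other classes was not tested.

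*Ntng1* was lower on average in Het in 8 of the 9 classes tested (5 of 6 fine classes), with a median log2 fold change of -0.53 and no call. Of all gene tests, 51.2% were lower in Het. The broad classes hold the nuclei of the fine ones and the classes share animals, so that these signs are not independent. *Ntng1* was lower in 12 of 17 tests without upper limits, 15 of 20 without a filter on low counts and 16 of 20 with DESeq2. With 1 marker enough for a class it was lower in 13 of 13. In L5 ET-like nuclei the 4 WT animals had 641, 769, 385 and 791 CPM and the 4 Het animals 484, 354, 234 and 256 CPM. The WT animal at 385 CPM, with 11 nuclei, lay among the Het values. The difference was -0.96 (SE 0.25, 95% interval -1.48 to -0.44, edgeR adjusted p = 0.349), and without a filter on low counts it was -1.05 and passed (edgeR adjusted p = 0.048), as did 0.0592% of the 16905 genes of that fit. It passed in none of the other 6 settings, where it ran from -1.13 to -0.33 (edgeR or DESeq2 adjusted p from 0.266 to 0.987), the smallest without upper limits on UMIs and genes. Of the marker sums of these nuclei, only that of Lamp5 did not overlap between genotypes. It was 10.7 to 29.6 CPM in WT and 38 to 76.5 CPM in Het. Of the 1412 genes tested in this class, 3.68% did not overlap. The part of the Lamp5 markers in the result was not tested. In striatal projection-like nuclei *Ntng1* had 94.9, 144 and 210 CPM in WT and 76.4, 91.4 and 106 CPM in Het, with overlap. The difference was -0.72 (SE 0.18, 95% interval -1.08 to -0.36, edgeR adjusted p = 0.478). Beside it, each WT animal held 35 to 67 such nuclei and each Het animal 86 to 197, and the part of this in the result was not tested. L6 CT-like nuclei gave -0.69 (SE 0.31, adjusted p = 0.444), L5 NP-like nuclei -0.58 (SE 0.27, adjusted p = 0.742) and Pvalb-like nuclei -0.53 (SE 0.27, adjusted p = 0.872). Over the other settings these 3 ran from -1.31 to 0.03, from -0.74 to -0.20 and from -0.77 to -0.25, and striatal projection-like nuclei from -0.72 to -0.44, with no call. L5 NP-like nuclei were not kept as a class without upper limits. Without WT male 1 the estimate was -0.45 in L6 CT-like and -0.34 in L5 NP-like nuclei. Immature GABA-like nuclei, the class with the next highest level, had the opposite sign, 0.29 with an interval from -1.14 to 1.71, which turned to -0.48 without Het male 2 and to -0.09 with 1 marker enough for a class.

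**Figure D4:**
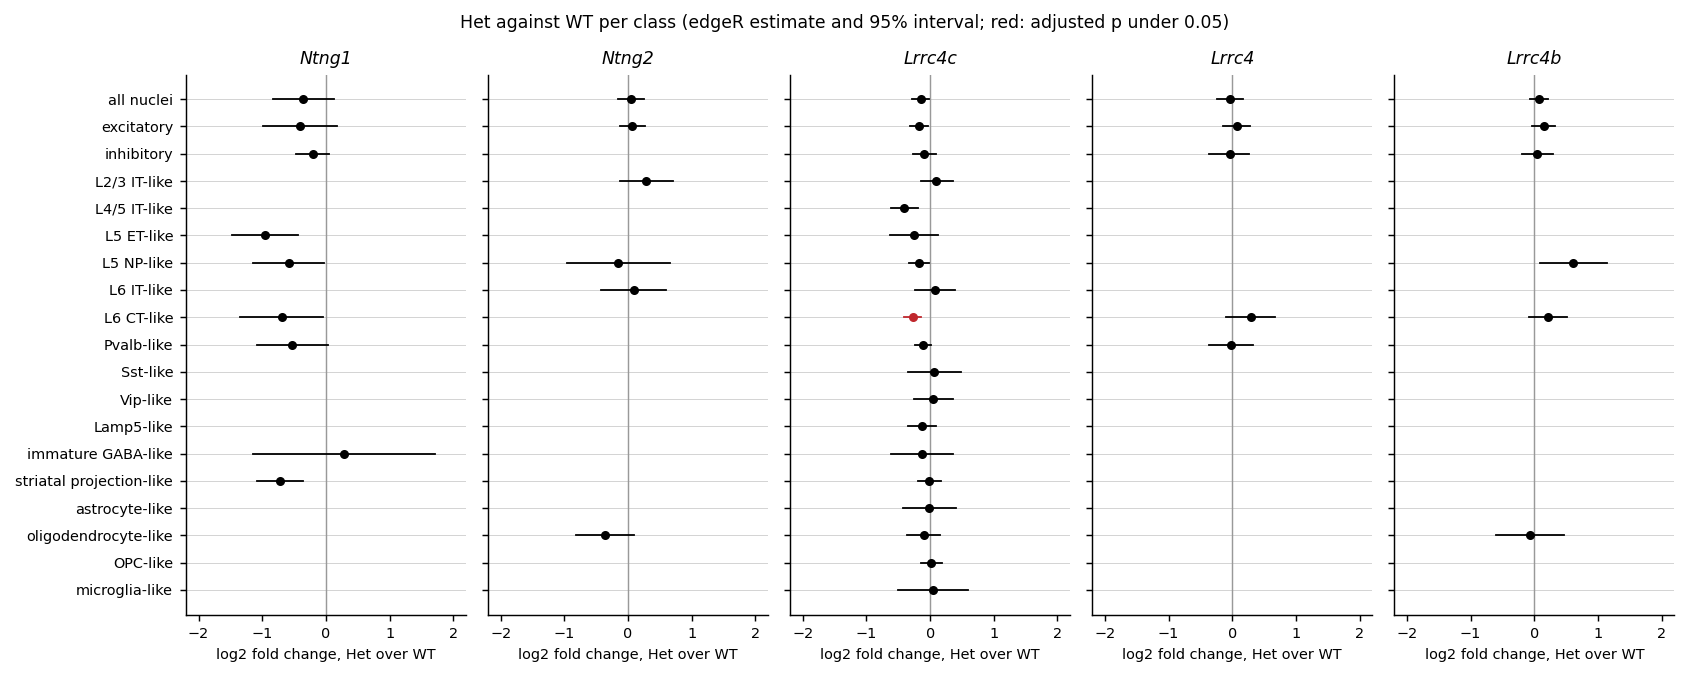
Log2 fold change of Het over WT (x axis) per class (y axis) for the 5 genes, as edgeR estimates with 95% intervals, red where called. *Lrrc4c* in L6 CT-like nuclei is the single red point, at -0.27, and the *Ntng1* estimates are negative in 8 of 9 classes with wide intervals.

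*Ntng2* gave no call and no unadjusted p under 0.05 in 6 tests by edgeR, nor a call by DESeq2. In excitatory nuclei it had 63.8, 79.6 and 93.7 CPM in WT and 69.7, 83.7 and 94.7 CPM in Het (0.07, 95% interval -0.12 to 0.27, and 0.02 to 0.14 with 1 animal left out). L2/3 IT-like nuclei gave 0.28 (95% interval -0.13 to 0.70), L6 IT-like nuclei 0.09 (-0.42 to 0.60) and oligodendrocyte-like nuclei -0.36 (-0.82 to 0.10). The 2 Het animals with enough Car3-like nuclei had 660 and 1099 CPM beside 946 to 1147 CPM in 5 WT animals, with no test. *Lrrc4* estimates ran from -0.04 in inhibitory to 0.29 in L6 CT-like nuclei, where the interval was -0.09 to 0.67. *Lrrc4b* was 29.1 CPM ± 5.51 in WT and 45.1 CPM ± 15.8 in Het in L5 NP-like nuclei (0.61, SE 0.26, edgeR adjusted p = 0.703, and 0.39 without Het female 1), and its other estimates lay between -0.07 and 0.21.

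Effects were also compared between the sexes. No term for sex by genotype was called among the 45 tests (2 had an unadjusted p under 0.05, beside 4.48% of all gene tests), and 0.0166% of all gene tests were called. The smallest p was that of *Lrrc4c* in excitatory nuclei (0.31, SE 0.12, edgeR adjusted p = 0.765).

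Other genes of the pathway were taken from lists. The direct partners, the LAR family phosphatases *Ptprf*, *Ptprd* and *Ptprs* and the scaffold genes *Dlg1* to *Dlg4*, gave 101 tests and no call by edgeR or DESeq2, with 6.93% at an unadjusted p under 0.05 and a median log2 fold change of -0.02. Among these, L6 CT-like nuclei gave 0.63 for *Ptprf* (SE 0.21, edgeR adjusted p = 0.182), 0.34 for *Dlg4*, the PSD-95 gene (SE 0.12, adjusted p = 0.24), and -0.18 for *Dlg1* (SE 0.07, adjusted p = 0.286). In OPC-like nuclei *Ptprd* gave -1.02 (SE 0.39, edgeR adjusted p = 0.968), and without a filter on low counts it was called there (-0.88, adjusted p = 0.00136), beside 0.00508% of the genes of that fit. The 11 classical netrins and their receptors, such as *Dcc* and the *Unc5* genes, gave 107 tests and no call by either tool, with 15.9% at an unadjusted p under 0.05 and a median of -0.04. Of 25 other leucine-rich repeat adhesion genes of the synapse, 24 were tested, with 1 call in 184 tests, beside 0.108% of all tests and 0.671% of the genes in L6 CT-like nuclei, where it lay. This was *Lingo1*, a brake on axon growth and myelination, which rose in L6 CT-like nuclei by 0.47 (SE 0.10, edgeR adjusted p = 0.0127). Without a filter on low counts *Lrfn2*, a synaptic adhesion gene, was called higher in excitatory (0.23, edgeR adjusted p = 0.0257) and L6 CT-like nuclei (0.37, adjusted p = 0.00623), beside 0.425% and 0.382% of the genes of those fits. In that list 17.9% of tests had an unadjusted p under 0.05 and the median was -0.03. Over all genes the share was 6.5% and the median was -0.00. Negative estimates made up between 57.6% and 60.7% of each list and 51.2% of all tests, and the tests of 1 gene in several classes are not independent.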

How the data were processed

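Counts were analysed per animal for 12 cortices (6 WT, 6 Het). Members and gene lists were chosen with earlier results of these data known. Per the labels and methods, the authors mapped reads to mm10 and called nuclei with ScaleRna and CellFinder, and the deposited values are expected counts of UMIs without normalization (92.6% of entries whole). The submitters' processing notes also name Seurat 4.3.0 and DESeq2 1.38.3. The 78743 barcodes deposited were fewer than the number of nuclei the paper states for this age, and the removal of doublets before deposit is not stated. No barcode was shared between animals. The transcript of the injected vector entered neither library sizes nor tests.

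Nuclei were held to the study's bounds of 800 and 6000 UMIs, 300 and 3000 genes, 1% mitochondrial UMIs and 0.9 for log genes over log UMIs, which kept 34862 barcodes (44.3%), where 33604 had over 6000 UMIs and 43096 lay under the last bound. The 5% of nuclei per animal with the highest Scrublet scores (scanpy 1.11.5), 1736 in all, were removed. A nucleus entered a class when a Poisson mixture over 149 marker genes gave it a posterior of at least 0.9 and it held at least 2 markers of that class at 3 times their mean level or more. Of the others, 8321 had a lower posterior and 11777 had too few markers. Excitatory and inhibitory nuclei were named from the summed posterior and broad markers. These thresholds were set after the marker values were seen. A dentate gyrus marker class of 465 nuclei that did not meet the naming criteria was left unnamed, and no nuclei entered the L6b and hippocampal pyramidal classes.

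CPM is the sum of a gene over the sum of all genes per animal and class, times 1000000. Animals entered a class with at least 10 nuclei. Sums were rounded and fitted with edgeR 4.0.16 (TMM, filterByExpr, robust quasi-likelihood, genotype only) in R 4.3.3 over all genes, with Benjamini-Hochberg adjustment per class. Classes with at least 3 animals per genotype were tested. Class levels were compared within animals by exact sign-flip tests. All tests are two-sided. The named genes are the 5 members, *Myt1l*, list genes called in any setting and, per member, the 5 genes most alike over classes (at least 20 CPM in 1 class), of which 1 is not reported here. *Ptprf*, *Dlg4* and *Dlg1* were named after their values were seen. DESeq2 1.42.0 and other settings were alternatives, and 1 marker enough for a class and tests of every pair of classes were added after the data were seen. The fits were tested on simulated data. Replicate numbers were not treated as pairs. Nuclear UMIs include introns, and counting error grows for classes with few nuclei, so that most members at under 100 CPM rest on few UMIs per animal and class.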

Additional observations from a re-analysis of the deposited data

Results flagged for a closer look

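In 4 of 90 groups of 1 genotype, gene and class, 1 animal stood far from the others by Dixon's ratio (4.44%, where chance gives about 5%). *Lrrc4c* in inhibitory nuclei was 2466 CPM in WT male 2 and 3044 to 3310 CPM in the other 5 WT animals, from 4952 UMIs. *Lrrc4b* in inhibitory nuclei was 25.4 CPM in WT male 1 (26 UMIs) and 36.1 to 41.2 CPM in the other WT animals. *Ntng1* in L5 NP-like nuclei was 73.9 CPM in Het male 1 (17.7 UMIs in 67 nuclei) and 25 to 40.9 CPM in the other Het animals. *Ntng2* in L6 IT-like nuclei was 121 CPM in WT female 2 (18 nuclei) and 206 to 215 CPM in the other 4 WT animals.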

How the results depend on the processing

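The number of calls among the 5 genes was 1 with RLE normalization, with DESeq2 and with double the marker UMIs, in each case *Lrrc4c* in L6 CT-like nuclei (DESeq2 adjusted p = 0.00946). Without a filter on low counts it was again 1, but for *Ntng1* in L5 ET-like nuclei (-1.05, edgeR adjusted p = 0.048), while *Lrrc4c* in L6 CT-like nuclei gave -0.21 (adjusted p = 0.222). It was 0 with a replicate block (*Lrrc4c* in L6 CT-like nuclei -0.27, edgeR adjusted p = 0.0767), with sex as a covariate (adjusted p = 0.0528), without upper limits on UMIs and genes (-0.25, adjusted p = 0.0595), without doublet removal (-0.26, adjusted p = 0.0705) and with 1 marker enough for a class (-0.21, adjusted p = 0.215). Leaving out 1 animal gave 0 to 1 calls. The call was lost without WT male 3, WT female 2, WT female 3, Het male 2, Het male 3, Het female 1, Het female 2 or Het female 3, 1 at a time. The causes were not tested. Same-numbered animals did not deviate together (correlations from -0.60 to 0.08). Since the litter of each animal is not given, this cannot tell whether the numbers pair animals. The block could not be fitted in L5 ET-like nuclei.

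Among the results with an unadjusted p under 0.05, all of *Ntng1* and the broad classes of *Ntng2* and *Lrrc4c*, signs turned for *Ntng1* in L6 CT-like nuclei without upper limits (0.03), for *Ntng1* in immature GABA-like nuclei with 1 marker enough (-0.09) and without Het male 2 (-0.48 to 0.56 over the animals left out), and for *Ntng2* in all nuclei without Het male 2 (-0.01 to 0.11 over the animals left out). Over all tests of the 5 genes shared with the values reported, the sign was kept in 45 of 45 with RLE, 45 of 45 with sex as a covariate, 44 of 45 with DESeq2, 42 of 45 without a filter on low counts, 42 of 43 with the block, 41 of 45 without doublet removal, 35 of 40 with double the marker UMIs, 38 of 44 with 1 marker enough and 30 of 41 without upper limits.

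Neighbour pairs of classes that passed were 2 as reported, 11 without upper limits, 4 without doublet removal, 5 with double the marker UMIs, 0 with 1 marker enough and 0 to 2 when 1 animal was left out. When every pair of classes was tested in place of neighbours, 339 of 680 passed. With 1 marker enough, *Ntng2* was 679 CPM in Car3-like nuclei and *Lrrc4c* was 5083 CPM in OPC-like nuclei, below Pvalb-like nuclei. Without upper limits *Lrrc4c* was 7549 CPM in OPC-like nuclei. Calls in the partner and related lists were 4 without a filter on low counts (*Lingo1*, *Lrfn2* in 2 classes, *Ptprd*). Over all genes and classes, calls were 91 as reported, 207 with DESeq2, 404 without a filter on low counts, 240 without upper limits, and from 29 (without WT female 3) to 143 (without WT female 1) with 1 animal left out. In L6 CT-like nuclei they were 51 as reported and from 19 (without Het female 1) to 64 (without WT female 1).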

Other observations

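For each gene, the 5 genes most alike over the 19 classes were listed by Pearson's r of log2(CPM + 5) among 11063 genes, as a description over points that share libraries and depth. *Ntng2* was most like 6530402F18Rik (r = 0.93), which overlaps it, followed by *Dnah14*, AI115009, *Aopep* and *Tfap2d*, all highest in Car3-like nuclei. *Lrrc4c* was most like 4930445B16Rik (r = 0.87), the antisense transcript in its own intron, followed by *Chic1*, *Ago4*, *Castor2* and Gm13052. *Ntng1* was most like *Etv3* (r = 0.76), *Ypel1*, *Klhl7*, *Runx1t1* and *Hap1*. *Lrrc4* was most like *Nek4* (r = 0.79), and *Astn2*, *Las1l* and *Map7d2* were also among its 5. *Lrrc4b* was most like *Kif3a* (r = 0.91), *Ncam2*, *Zfp354c*, *Map2* and *Cntn1*. Vascular and leptomeningeal-like nuclei, with 0 CPM of *Lrrc4b*, enter these values, and no rank correlation was made for the lists. Within the family, *Lrrc4b* gave r = 0.44 but Spearman rho = 0.03 with *Lrrc4*, and 0.49 but 0.18 with *Lrrc4c*. With *Ntng1* the 2 measures were close (0.27 and 0.26). The part of single classes in r was not tested.

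Joint detection of *Ntng1* and *Ntng2* without thinning differed between 2 classes of layer 6. In L6 CT-like nuclei 12 held both where 1.18 were expected, spread over 6 of 12 animals, and in L6 IT-like nuclei 6 held both where 12.6 were expected. The counts are small, the classes were picked after their values were seen, and doublets that escaped removal were not tested as a source.

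Among nuclei without upper limits on UMIs and genes, *Ntng2* in excitatory nuclei differed by 0.23 between Het and WT (edgeR adjusted p = 0.234), beside 0.07 under the limits. There *Lrrc4c* was lower in Het in 19 of 23 tests, beside 13 of 19, and *Ntng1* in 12 of 17, beside 8 of 9. *Lrrc4c* was lower in 11 of 20 tests without a filter on low counts, 13 of 20 with DESeq2 and 13 of 21 with 1 marker enough. It was lower in 15 of 20 without doublet removal and 13 of 16 with double the marker UMIs.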
